A study of Homo sapiens with 10 samples.

Results

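The change that accompanied bortezomib resistance was compared between HBL2 and JEKO. Both are established human cell lines of mantle cell lymphoma, a malignancy that arises from mature B lymphocytes. Bortezomib inhibits the proteasome, the protease complex that degrades ubiquitin-tagged proteins. The 4 groups were HBL2 PT (3 arrays), HBL2 BR (3 arrays), JEKO PT (2 arrays) and JEKO BR (2 arrays). These are 10 of the 10 arrays of the series. BR marks the cells whose resistance was induced with bortezomib, and PT is taken here as the parental cells of the same line from knowledge of the study, because the labels give only the letters. The labels do not give the dose or time of selection, nor whether a resistant line was a clone or a mixed population. All cells were in logarithmic growth, and biotin-labelled total RNA was hybridised. Nothing in the labels says that replicates came from separate cultures. The p-values then cover the spread between these arrays alone, and that spread may be technical.

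Proteasome inhibitors bear on antibody-secreting cells in particular, since a plasma cell makes much protein and depends on the disposal of misfolded chains. A B cell that becomes a plasma cell shuts off genes of antigen presentation and B cell identity, and turns on secretory genes under the transcription factors IRF4, PRDM1 and XBP1. The unfolded protein response, the ATF4 amino acid response, heat shock chaperones and proteasome subunits are known responses to proteasome inhibition. Lists of those genes, and of the B cell, antigen-presentation and metabolic programs, are described below for how far their change depended on the line.

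For each gene the change in a line is the mean of its BR arrays minus the mean of its PT arrays. The line difference is the HBL2 change minus the JEKO change. A positive value means that the HBL2 change lay above the JEKO change, and a negative value that it lay below. The deposited values are log-like scores of unstated base set by each probe set's rank within its array, from 0 to 4.99 with a median of 0.73. Changes and differences are therefore given in score units with the standard error of the fit after ±, not as folds. Such values hide any shift shared by most genes. Adjusted p-values are from limma with Benjamini-Hochberg adjustment over 14529 genes, and a gene is called where that p is under 0.05.

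The B cell markers MS4A1, CD79A, CD79B, PAX5 and CD22 and the mantle cell markers CCND1 and SOX11 had group means at or above the 71.5th percentile of the arrays in every group. The other CCND1 probe set, not used for the gene, lay under the array median in JEKO. CD5, a surface marker of mantle cell lymphoma, was under the array median in both HBL2 groups, with means of 0.671 in PT and 0.552 in BR. The BR mean lay at the 31.6th percentile. Between arrays of a group the correlation over all probe sets was 0.932 to 0.958, against 0.892 to 0.913 between the lines. Between PT and BR arrays of the same line it was 0.917 to 0.939 in HBL2 and 0.930 to 0.942 in JEKO. The beta-actin control, the 5′ minus the 3′ probe set, was lowest on HBL2 PT 1, HBL2 BR 3 and JEKO BR 2 (-1.25, -1.04 and -1.01, against -0.575 to -0.858 on the others). The GAPDH control was lowest on JEKO BR 2. The part of this RNA quality measure in the results was not tested on its own, but where leaving out those arrays moved a count of called genes by over 1.5 times, the count without them is given.

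The change differed between the lines for 1266 genes, 8.71% of those tested. The HBL2 change lay above the JEKO change for 429 genes (2.95%) and below it for 837 (5.76%). Within HBL2 1711 genes (11.8%) were called, 714 (4.91%) higher and 997 (6.86%) lower in BR. Within JEKO 622 (4.28%) were called, 372 (2.56%) higher and 250 (1.72%) lower. These contrasts share their arrays with the line difference. The called genes differed by a median of 0.50 units, and by at least 1 unit for 87 of them. Their PT and BR arrays did not overlap for 984 (77.7%) in HBL2 and 1026 (81%) in JEKO. Over all genes the arrays did not overlap for 27.3% in HBL2, where 3 stand against 3, and 50.8% in JEKO, where 2 stand against 2.

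The count rests in part on single arrays. It was 658 without JEKO BR 2, of which 631 were among the 1266, and 696 without JEKO PT 1 and 832 without JEKO PT 2. Without the 3 arrays low in beta-actin, a setting chosen after seeing the data, it was 619, with 571 shared. With the array weights that limma estimates it was 1948.

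The called genes fall into patterns by how each line moved. In 320 (25.3%, beside 4.43% of all genes) the HBL2 change reached 0.3 units while the JEKO change stayed under 0.15. Of these, 212 lay lower in HBL2 BR than in HBL2 PT and 108 lay higher. In 216 (17.1%, beside 4.34% of all genes) the JEKO change reached 0.3 units while the HBL2 change stayed under 0.15. In 99 (7.82%) both changes reached 0.3 units with opposite signs, and 89 of these were lower in HBL2 BR and higher in JEKO BR. Among all genes tested 100 (0.688%) had that pattern. In 44 (3.48%, beside 5.02% of all genes) both lines moved the same way by at least 0.15 units, by different amounts. The other 587 (46.4%, beside 85.5% of all genes) fall in none of these classes. Genes called in both lines' own contrasts numbered 91 with the same sign, of which 78 were not called for the line difference, and 87 with opposite signs, all called for it.

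**Figure D1:**
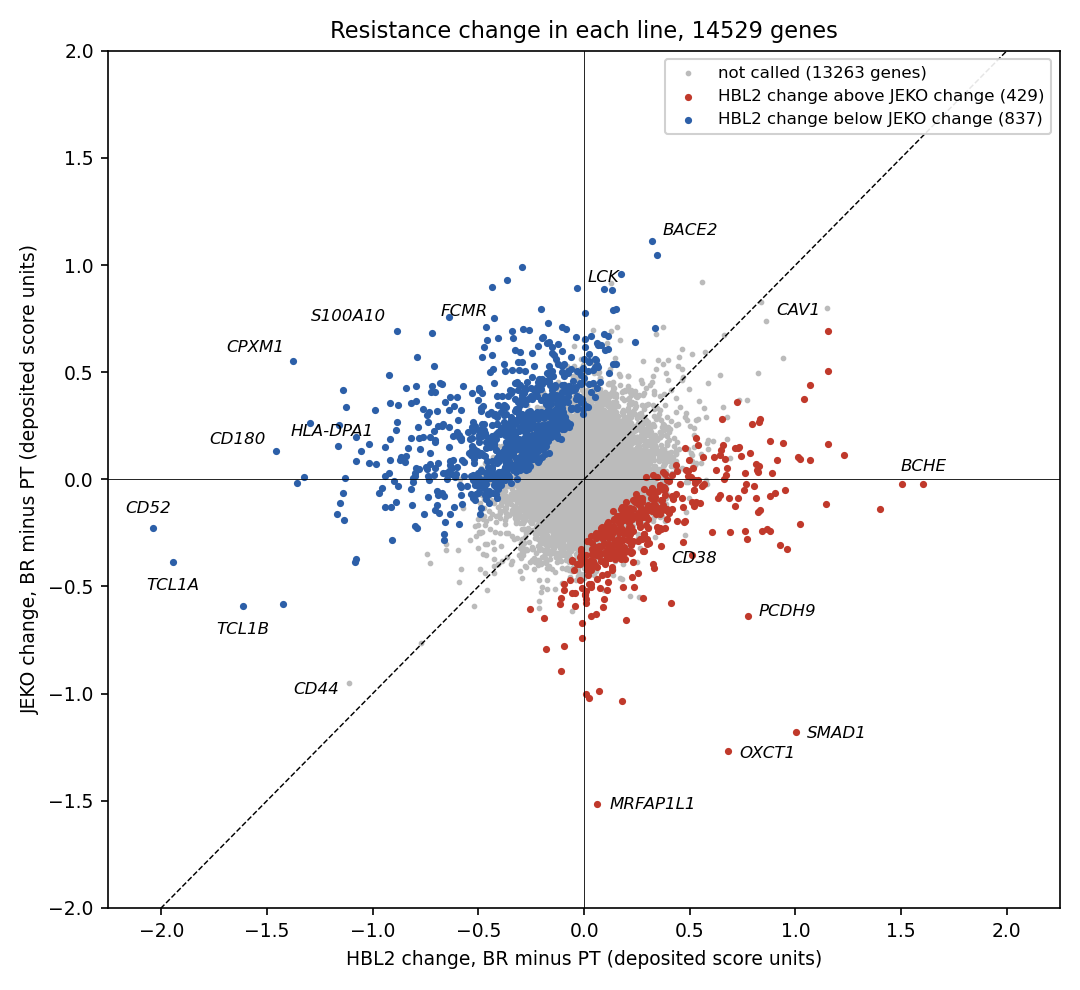
Change in HBL2 (horizontal axis, score units) against change in JEKO (vertical axis, score units), 1 point per gene, over the 14529 genes tested. Genes called for the line difference are coloured by its direction (429 above and 837 below), and genes with the largest differences are labelled.

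SMAD1 had the largest line difference. It encodes the transcription factor that carries bone morphogenetic protein signals to the nucleus. Its scores were 0.66, 0.61 and 0.60 on the HBL2 PT arrays, 1.72, 1.58 and 1.59 on HBL2 BR, 1.999 and 1.97 on JEKO PT and 0.80 and 0.82 on JEKO BR. The BR arrays were high in HBL2 and low in JEKO, and in neither line did they overlap the PT arrays. SMAD1 rose in HBL2 by 1.004 ± 0.061 (adjusted p = 1.94e-08) and its change in JEKO was -1.18 ± 0.075 (adjusted p = 2.84e-07), a fall, so the lines differed by 2.18 ± 0.096 (adjusted p = 2.32e-09). Among PT cells SMAD1 was lower in HBL2 than in JEKO (HBL2 minus JEKO -1.36 ± 0.068, adjusted p = 1.42e-09), and among BR cells it was higher in HBL2 (0.82 ± 0.068, adjusted p = 2.33e-07). All 3 of its probe sets had a positive line difference. Of the 23 genes tested of the BMP, TGF-beta and ID list, 1 more was called, TGFBR2, the type II TGF-beta receptor, at -0.47 ± 0.12 (adjusted p = 0.0184). The list's share of 8.7% called is that of all genes (8.71%), and the list had 4 calls without HBL2 BR 3 and 1 without JEKO BR 1, JEKO BR 2 or JEKO PT 1. TGFBR2 lost its call without any 1 of JEKO BR 1, JEKO BR 2 or JEKO PT 1 (adjusted p = 0.0616 to 0.0865). The median over that list was 0.0703, against -0.0106 over all genes.

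OXCT1, the mitochondrial enzyme that starts the breakdown of ketone bodies, had scores of 1.58, 1.79 and 1.21 on the HBL2 PT arrays, 2.22, 2.30 and 2.12 on HBL2 BR, 1.91 and 1.76 on JEKO PT and 0.69 and 0.45 on JEKO BR. OXCT1 rose in HBL2 by 0.68 ± 0.11 (adjusted p = 0.000569) and fell in JEKO (change -1.27 ± 0.14, adjusted p = 8.53e-05), a line difference of 1.95 ± 0.18 (adjusted p = 7.07e-06). PCDH9, a protocadherin of cell adhesion, had scores of 0.77, 0.98 and 0.83 on the HBL2 PT arrays, 1.62, 1.67 and 1.62 on HBL2 BR, 2.14 and 2.14 on JEKO PT and 1.55 and 1.46 on JEKO BR. PCDH9 rose in HBL2 by 0.77 ± 0.063 and fell in JEKO (change -0.64 ± 0.078). In both genes the PT and BR arrays did not overlap in either line.

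Several of the largest positive differences went with a rise in HBL2. BCHE, butyrylcholinesterase, had scores of 0.23, 0.15 and 0.70 on the HBL2 PT arrays, 2.07, 1.95 and 1.86 on HBL2 BR, 0.008 and 0.42 on JEKO PT and 0.091 and 0.29 on JEKO BR. BCHE rose in HBL2 by 1.60 ± 0.14 (adjusted p = 6.87e-07), while in JEKO its change was -0.022 ± 0.17 (adjusted p = 0.97). OLFML2A, a secreted protein of the olfactomedin family, had scores of 0.46, 0.39 and 0.58 on the HBL2 PT arrays, 2.02, 2.16 and 1.75 on HBL2 BR, 1.32 and 1.46 on JEKO PT and 1.42 and 1.32 on JEKO BR, and its line difference was 1.53 ± 0.14 (adjusted p = 7.14e-06). HNRNPLL, an RNA-binding protein that controls splicing in lymphocytes, differed by 1.54 ± 0.17 (adjusted p = 2.72e-05), and RRAS2, a small GTPase of the RAS family, by 1.26 ± 0.14 (adjusted p = 2.72e-05). CTTN, the actin-binding protein cortactin, differed by 1.12 ± 0.12 (adjusted p = 2.33e-05). ESRRG, an orphan nuclear receptor, differed by 1.23 ± 0.15, LMO3, a LIM-domain cofactor, by 1.24 ± 0.12, CHI3L1, a secreted chitinase-like protein, by 1.12 ± 0.13 and LRRN3, a leucine-rich repeat membrane protein, by 1.10 ± 0.12. All of these rose within HBL2, and within JEKO their adjusted p was at least 0.0809, the value of LMO3.

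The call of BCHE was lost on normal scores (adjusted p = 0.143), and that of CTTN with the median of its probe sets (adjusted p = 0.106). HNRNPLL differed by 0.71 when _x_at and _s_at probe sets were dropped, and LMO3 by 0.74 with the median of its probe sets, both still called.

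RGS1, which limits signalling by chemokine receptors, had scores of 0.77, 0.50 and 0.74 on the HBL2 PT arrays, 1.75, 1.71 and 1.43 on HBL2 BR, 0.89 and 1.39 on JEKO PT and 0.77 and 0.86 on JEKO BR. RGS1 rose in HBL2 by 0.96 ± 0.11 (adjusted p = 2.61e-05), and its JEKO change of -0.32 ± 0.14 (adjusted p = 0.235) was not called. The next genes on its chromosome, RGS13 and RGS2, encode regulators of the same family, and their line differences were 0.96 ± 0.18 (adjusted p = 0.00374) and 0.62 ± 0.11 (adjusted p = 0.0016).

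For MRFAP1L1 and KBTBD7 the JEKO arrays moved and the HBL2 change was not called. MRFAP1L1 had scores of 1.71, 1.85 and 2.03 on the HBL2 PT arrays, 1.92, 1.94 and 1.91 on HBL2 BR, 2.08 and 2.03 on JEKO PT and 0.54 and 0.55 on JEKO BR. MRFAP1L1 fell in JEKO (change -1.52 ± 0.087, adjusted p = 1.23e-07) and its HBL2 change was 0.059 ± 0.071 (adjusted p = 0.686), a line difference of 1.58 ± 0.11 (adjusted p = 7.12e-07). KBTBD7, an adaptor of CUL3 ubiquitin ligases, fell in JEKO too (change -1.03 ± 0.17, adjusted p = 0.00278) and had a line difference of 1.21 ± 0.22 (adjusted p = 0.00277). Its call was lost on normal scores (adjusted p = 0.0711).

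**Figure D2:**
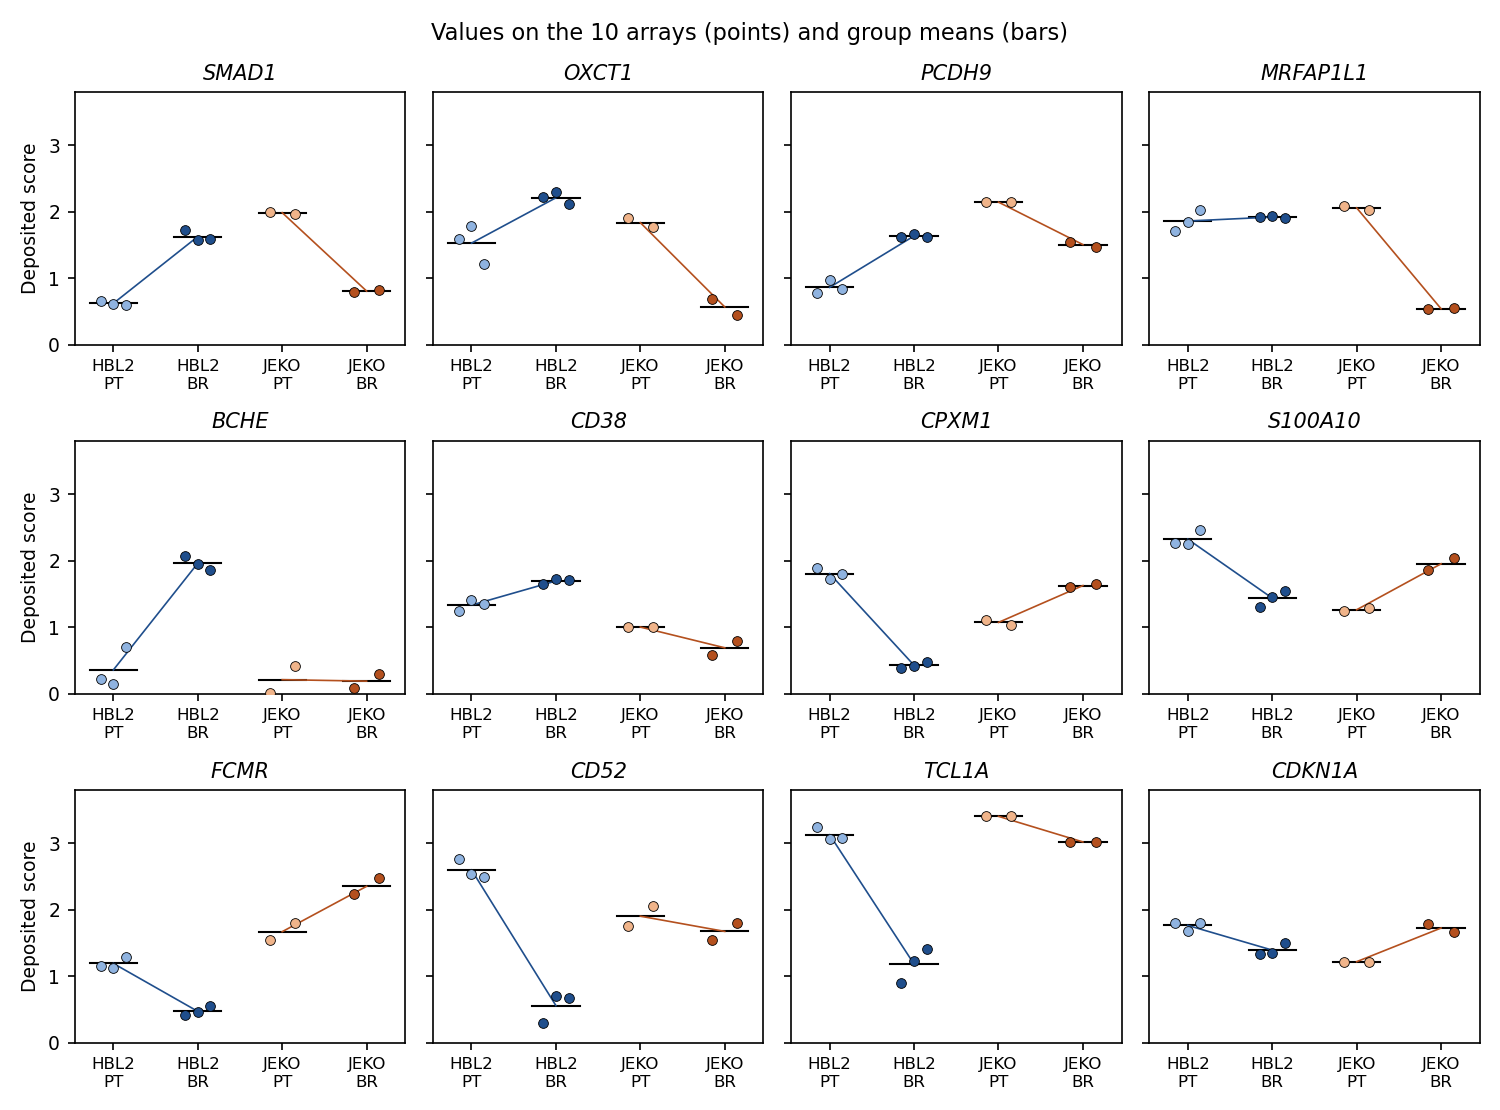
Deposited score (vertical axis, score units) on each array for genes with large line differences, by group (horizontal axis: HBL2 PT, HBL2 BR, JEKO PT, JEKO BR); points are arrays, bars are group means and lines join the means of a cell line. SMAD1 crosses from high in JEKO PT to high in HBL2 BR, and CPXM1 runs the other way.

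CPXM1, a secreted member of the carboxypeptidase family, had the largest negative difference. Its scores were 1.89, 1.72 and 1.81 on the HBL2 PT arrays, 0.39, 0.42 and 0.48 on HBL2 BR, 1.11 and 1.04 on JEKO PT and 1.61 and 1.65 on JEKO BR. CPXM1 fell in HBL2 (change -1.38 ± 0.063, adjusted p = 2.14e-09) and rose in JEKO by 0.55 ± 0.077 (adjusted p = 0.000687), so the lines differed by -1.93 ± 0.10 (adjusted p = 1.35e-08). The PT and BR arrays did not overlap in either line.

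The calcium-binding proteins S100A10 and S100A4 went the same way. S100A10 had scores of 2.26, 2.25 and 2.46 on the HBL2 PT arrays, 1.31, 1.46 and 1.55 on HBL2 BR, 1.24 and 1.28 on JEKO PT and 1.87 and 2.04 on JEKO BR. S100A10 fell in HBL2 (change -0.89 ± 0.077) and rose in JEKO by 0.69 ± 0.095, with a line difference of -1.58 ± 0.12 (adjusted p = 1.58e-06). S100A4 differed by -1.56 ± 0.12 (adjusted p = 2.01e-06), falling in HBL2 (change -1.14 ± 0.078) and rising in JEKO by 0.42 ± 0.096. With the median of its probe sets S100A10 differed by -0.89, still called.

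FCMR, the Fc receptor for immunoglobulin M, had scores of 1.16, 1.12 and 1.29 on the HBL2 PT arrays, 0.41, 0.46 and 0.55 on HBL2 BR, 1.54 and 1.80 on JEKO PT and 2.23 and 2.48 on JEKO BR, and its line difference was -1.40 ± 0.13 (adjusted p = 7.14e-06). BIN1, an adaptor that bends membranes, had scores of 1.18, 0.94 and 1.06 on the HBL2 PT arrays, 0.65, 0.26 and 0.36 on HBL2 BR, 0.73 and 0.78 on JEKO PT and 1.45 and 1.58 on JEKO BR, and its line difference was -1.39 ± 0.15 (adjusted p = 3.14e-05). TMC8, a membrane protein also called EVER2, differed by -1.36 ± 0.13 (adjusted p = 7.94e-06), and by -0.74 with the median of its probe sets. FCMR, BIN1 and TMC8 each fell in HBL2 and rose in JEKO, with no overlap of PT and BR arrays in either line.

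Among the 8 opposite genes chosen by the size of the smaller change, 3 rose in HBL2 and 5 fell there. Called in each line's own contrast with opposite signs were 18 genes higher in HBL2 BR and lower in JEKO BR, and 69 the other way.

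Other large negative differences went with a fall in HBL2 and a JEKO change that was not called. CD52, a small lymphocyte surface protein and antibody target, had scores of 2.77, 2.54 and 2.49 on the HBL2 PT arrays, 0.30, 0.70 and 0.68 on HBL2 BR, 1.75 and 2.06 on JEKO PT and 1.55 and 1.80 on JEKO BR. CD52 fell in HBL2 (change -2.04 ± 0.11, adjusted p = 6e-09), while the JEKO change was -0.23 ± 0.13 (adjusted p = 0.415), a line difference of -1.81 ± 0.17 (adjusted p = 8.95e-06). TYROBP, an adaptor with an activating motif, differed by -1.56 ± 0.11 (adjusted p = 7.12e-07). SYTL1, a vesicle-trafficking protein, differed by -1.46 ± 0.13 (adjusted p = 5.77e-06), and its JEKO change was 0.34 ± 0.10 (adjusted p = 0.0704). MYO1F, an unconventional myosin of blood cells, differed by -1.41 ± 0.18 (adjusted p = 0.000148), with changes of -0.92 ± 0.12 (adjusted p = 4.3e-05) in HBL2 and 0.49 ± 0.14 (adjusted p = 0.0664) in JEKO. In both of these genes the JEKO PT and BR arrays did not overlap, as was so for 50.8% of all genes. TRAF3IP3, a protein that binds TRAF3, differed by -1.41 ± 0.11 (adjusted p = 2.3e-06), but when _x_at and _s_at probe sets were dropped by -0.095 (adjusted p = 0.795). With the median of its probe sets it differed by -0.65, still called.

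In other genes the changes of the lines had the same sign and reached 0.3 units in both, but differed in size. TCL1A, an activator of the kinase AKT in early and mature B cells, had scores of 3.25, 3.06 and 3.07 on the HBL2 PT arrays, 0.90, 1.24 and 1.41 on HBL2 BR, 3.40 and 3.40 on JEKO PT and 3.02 and 3.02 on JEKO BR. TCL1A fell in HBL2 (change -1.94 ± 0.096, adjusted p = 2.4e-09), and its JEKO change of -0.39 ± 0.12 (adjusted p = 0.0776) was not called. TCL1A had JEKO PT and BR arrays that did not overlap, as did 50.8% of all genes. Its neighbour in the same gene family, TCL1B, had scores of 2.52, 2.29 and 2.42 on the HBL2 PT arrays, 0.67, 0.77 and 0.96 on HBL2 BR, 2.88 and 3.05 on JEKO PT and 2.40 and 2.34 on JEKO BR. TCL1B fell in both lines, by more in HBL2 (line difference -1.02 ± 0.13, adjusted p = 8.93e-05). BACE2, a transmembrane protease, rose in both lines and by more in JEKO: the changes were 0.32 ± 0.081 (adjusted p = 0.0139) in HBL2 and 1.11 ± 0.099 (adjusted p = 1.61e-05) in JEKO. Its line difference was -0.79 ± 0.13 (adjusted p = 0.00105), and its call was lost on normal scores (adjusted p = 0.172), on percentile ranks (adjusted p = 0.617) and when _x_at and _s_at probe sets were dropped (adjusted p = 0.281). NAPSB, a transcribed relative of the aspartic protease napsin, fell in both lines and by more in HBL2 (line difference -0.71 ± 0.13, adjusted p = 0.00263). OSBPL10, a lipid-binding protein, had a line difference of -0.84 ± 0.096 (adjusted p = 4.09e-05), but its probe sets disagree: when _x_at and _s_at probe sets were dropped the value was 0.073 (adjusted p = 0.793). The long noncoding RNA LINC01088 rose in JEKO by 1.05 ± 0.16 and had a line difference of -0.70 ± 0.21 (adjusted p = 0.0477), a call lost without any 1 of HBL2 BR 2, HBL2 BR 3, HBL2 PT 2, HBL2 PT 3, JEKO BR 2, JEKO PT 1 or JEKO PT 2 (adjusted p = 0.0513 to 0.336) and in 7 of the other settings (adjusted p = 0.0649 to 0.849).

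Antigen presentation through MHC class II separated the lines. Class II molecules show peptides to helper T cells, and their genes share an upstream module of an X box and a Y box that is bound by the RFX factors and NF-Y with the coactivator CIITA. Of 14 members tested, 11 were called with the HBL2 change below the JEKO change, a share of 78.6% beside 8.71% of all genes. In the other direction 0 were called in limma, and 0 had an unadjusted p under 0.05. The median line difference of the list was -0.652, against -0.0106 over all genes. The median change was -0.632 in HBL2 and 0.0131 in JEKO.

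HLA-DRB1, a beta chain, had scores of 2.91, 2.71 and 2.90 on the HBL2 PT arrays, 1.78, 1.81 and 2.10 on HBL2 BR, 2.93 and 3.09 on JEKO PT and 2.99 and 3.06 on JEKO BR. HLA-DPA1, an alpha chain, had scores of 2.58, 2.55 and 2.61 on the HBL2 PT arrays, 1.41, 1.61 and 1.90 on HBL2 BR, 2.81 and 2.93 on JEKO PT and 2.92 and 3.12 on JEKO BR. In both genes the BR arrays of HBL2 lay below its PT arrays, and the JEKO arrays lay close to each other. HLA-DRB1 differed by -0.95 ± 0.13 (adjusted p = 0.000246) and HLA-DPA1 by -1.10 ± 0.15 (adjusted p = 0.000243), while HLA-DRA, the alpha chain that pairs with the DR beta chains, differed by -0.65 ± 0.12 (adjusted p = 0.0036). CD74, the invariant chain that guides class II molecules, differed by -0.66 ± 0.15 (adjusted p = 0.00985), and HLA-DMA, which edits the bound peptides, by -0.59 ± 0.15 (adjusted p = 0.0172). HLA-DQA1 had a line difference of -1.34 ± 0.24 (adjusted p = 0.0022), but its 3 probe sets ran from -1.34 to 0.018. Its JEKO means of 0.464 in PT and 0.475 in BR lay under the array median of 0.73, where a fall in JEKO could hardly show. HLA-DQA1 lost its call with the median of its probe sets (adjusted p = 0.585), on normal scores (adjusted p = 0.147) and on percentile ranks (adjusted p = 0.342). HLA-DRB4 differed by -0.83 ± 0.16 (adjusted p = 0.00409), by -0.35 with the median of its probe sets, and lost its call on percentile ranks (adjusted p = 0.0841).

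CIITA itself had a line difference of -0.055 ± 0.13 (95% interval -0.33 to 0.22, adjusted p = 0.864). Of the 14 class II members 7 were called without JEKO BR 2, and 5 on percentile ranks, where HLA-DPA1 was not called (adjusted p = 0.0769). An HLA probe set may also detect related genes, and alleles of the 2 lines can bind them unequally, so levels between the lines are less certain than changes within a line. In cells measured in bulk, fewer cells of a kind and less RNA per cell cannot be told apart.

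The upstream sequence of class II and interferon-regulated genes was read from the RefSeq promoter table (GRCh38.p14, 250 bases upstream of the start). The stretches below are shown because they carry the shared elements of genes called in the line difference. Capitals mark the Y box core CTGATTGG and the X box letters CAACNGATG in HLA-DRB1, HLA-DQB1 and HLA-DMA. In the others they mark the interferon-response letters GAAANNGAA, or their reverse complement, including overlapping copies. All are written 5′ to 3′ along the gene's strand.
HLA-DRB1 chr6:32589880-32589935 minus strand: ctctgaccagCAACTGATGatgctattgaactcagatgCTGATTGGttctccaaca
HLA-DQB1 chr6:32666731-32666758 minus strand: agctccagtgCTGATTGGttcttttccg
HLA-DMA chr6:32953162-32953189 minus strand: ctacgcttctCTGATTGGtttagacaaa
B2M chr15:44711363-44711397 plus strand: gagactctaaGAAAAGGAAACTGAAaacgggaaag
IFI6 chr1:27672267-27672358 minus strand: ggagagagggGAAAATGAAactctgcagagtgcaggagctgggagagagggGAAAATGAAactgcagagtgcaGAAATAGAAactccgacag
ISG15 chr1:1013374-1013414 plus strand: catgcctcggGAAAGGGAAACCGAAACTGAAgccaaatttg
PARP9 chr3:122564322-122564350 minus strand: ggcgcaaagtTTCAGTTTCgcttccctgg

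Searched on both strands, CTGATTGG was found in 4 of 11 class II members with a promoter entry (the printed 3 and RFX5). Over all 27305 genes of the promoter table it was found in 4.59%, counting a gene where any of its promoters matched. CAACNGATG was found in 1 of the 11, HLA-DRB1, and in 0.454% of all. In HLA-DRB1 both elements lie in the printed 56 bases, 87 to 32 bases before the start. GAAANNGAA was found in 12 of 19 interferon-stimulated genes with an entry, 6 of them among the 7 called ones, and in 8.41% of all genes of the table. Among 13 class I and peptide-loading genes with an entry 7 held it, B2M among them, and 2 of these were among the 6 called ones. The X box and interferon letters were shortened after longer forms had been searched in the same promoter table. These are matches of letters and were not tested for binding.

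Interferon-stimulated genes encode antiviral proteins. Of 25 tested, 9 were called with the HBL2 change below the JEKO change and 1 above, with a list median of -0.293. OAS2, a sensor of double-stranded RNA, had scores of 1.30, 1.52 and 1.75 on the HBL2 PT arrays, 0.84, 0.76 and 0.58 on HBL2 BR, 1.07 and 0.81 on JEKO PT and 1.35 and 1.26 on JEKO BR. OAS2 fell in HBL2 (change -0.80 ± 0.10, adjusted p = 6.62e-05), and in JEKO its change was 0.37 ± 0.13 (adjusted p = 0.127), a line difference of -1.16 ± 0.16 (adjusted p = 0.00032). IFI6, which carries 3 copies of the motif in the printed stretch, had scores of 0.996, 1.02 and 1.08 on the HBL2 PT arrays, 0.70, 0.66 and 0.80 on HBL2 BR, 0.55 and 0.39 on JEKO PT and 0.97 and 0.85 on JEKO BR. IFI6 fell in HBL2 (change -0.31 ± 0.083, adjusted p = 0.0213) and rose in JEKO by 0.44 ± 0.10 (adjusted p = 0.0218). IRF7, a transcription factor that drives interferon genes, also fell in HBL2 and rose in JEKO, with a line difference of -0.75 ± 0.11 (adjusted p = 0.000419). ISG15, a ubiquitin-like modifier, differed by -0.56 ± 0.098 (adjusted p = 0.00172) and PARP9, a partner of the antiviral DTX3L ligase, by -0.52 ± 0.12 (adjusted p = 0.0119).

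IFI44 was the member with the opposite sign, at 0.77 ± 0.20 (adjusted p = 0.0256), and its call was lost without any 1 of HBL2 BR 1, HBL2 BR 2, JEKO BR 2, JEKO PT 1 or JEKO PT 2 (adjusted p = 0.0608 to 0.142) and in 5 of the other settings (adjusted p = 0.0793 to 0.339). With the median of its probe sets OAS2 differed by -0.44, still called. Of the 25 members 6 were called without JEKO PT 2.

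MHC class I molecules show peptides to cytotoxic T cells. Of 16 class I and peptide-loading genes, 8 were called, each with the HBL2 change below the JEKO change, and the median was -0.405. No member was above at an unadjusted p under 0.05 (0 of 16). NLRC5, the coactivator of class I genes, had scores of 1.55, 1.48 and 1.85 on the HBL2 PT arrays, 1.04, 1.12 and 1.14 on HBL2 BR, 1.66 and 1.84 on JEKO PT and 1.97 and 2.07 on JEKO BR. NLRC5 fell in HBL2 (change -0.52 ± 0.085, adjusted p = 0.000507), and the line difference was -0.79 ± 0.13 (adjusted p = 0.00146). HLA-E differed by -0.67 ± 0.11 (adjusted p = 0.00117), HLA-B by -0.67 ± 0.097 (adjusted p = 0.000375) and B2M, the light chain of every class I molecule, by -0.54 ± 0.12 (adjusted p = 0.0103). PSMB8, the interferon-induced proteasome subunit that trims peptides for class I, differed by -0.47 ± 0.094 (adjusted p = 0.0048) and its fellow subunit PSMB9 by -0.61 ± 0.10 (adjusted p = 0.00134). HLA-F differed by -0.69 ± 0.097 (adjusted p = 0.000318). Of the 16 members 5 were called on percentile ranks. HLA-B lost its call on percentile ranks (adjusted p = 0.161), and HLA-F when _x_at and _s_at probe sets were dropped (adjusted p = 0.65).

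The mature B cell program held many of the negative differences. Of 36 genes tested, 17 were called with the HBL2 change below the JEKO change and 1 above, and the median was -0.361. CD180, a Toll-like receptor relative on B cells, had scores of 2.11, 1.99 and 2.18 on the HBL2 PT arrays, 0.54, 0.79 and 0.58 on HBL2 BR, 1.85 and 1.85 on JEKO PT and 1.91 and 2.06 on JEKO BR. CD180 fell in HBL2 (change -1.46 ± 0.074, adjusted p = 3.54e-09), while in JEKO its change was 0.13 ± 0.091 (adjusted p = 0.499), a line difference of -1.59 ± 0.12 (adjusted p = 9.24e-07). AFF3, a nuclear protein of lymphoid cells, differed by -1.34 ± 0.17 (adjusted p = 0.000135), but its call was lost with the median of its probe sets (adjusted p = 0.217). VPREB3, a chaperone-like partner of immunoglobulin chains, differed by -1.11 ± 0.18 (adjusted p = 0.0011) and POU2AF1, the octamer-factor coactivator, by -1.06 ± 0.14 (adjusted p = 0.000142). FCER2, the low-affinity IgE receptor CD23, was the member with the opposite sign (0.72 ± 0.15, adjusted p = 0.0064).

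Not every B cell identity gene separated the lines. PAX5, the B cell commitment factor, differed by -0.16 ± 0.13 (95% interval -0.45 to 0.12, adjusted p = 0.536). MS4A1, which encodes CD20, differed by -0.28 ± 0.098 (95% interval -0.49 to -0.069, adjusted p = 0.0943), was called with a beta-actin covariate (adjusted p = 0.0436) and differed by -0.093 with the median of its probe sets (adjusted p = 0.741). CD79A, a signalling chain of the B cell receptor, differed by -0.26 ± 0.097 (95% interval -0.47 to -0.054, adjusted p = 0.114), was called with 2 arrays in each group (adjusted p = 0.0304) and differed by -0.14 when _x_at and _s_at probe sets were dropped (adjusted p = 0.498). For the mantle cell markers the line difference was 0.24 ± 0.10 for CCND1 (95% interval 0.022 to 0.45) and 0.19 ± 0.12 for SOX11 (95% interval -0.055 to 0.44), neither called. The 2 probe sets of CCND1 disagree, with line differences of 0.235 and -0.236, and with their median the adjusted p was 0.998. The second had means of 3.035 and 3.039 in HBL2 PT and BR, but 0.159 and 0.399 in JEKO PT and BR, under the array median. Its JEKO change is therefore one between low values.

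Among 21 genes of B cell receptor signalling, 9 were called with the HBL2 change below the JEKO change and 0 above, where 1 had an unadjusted p under 0.05. The median was -0.301. FCGR2B, the inhibitory Fc receptor, had scores of 2.04, 2.09 and 2.12 on the HBL2 PT arrays, 0.68, 0.84 and 1.22 on HBL2 BR, 1.84 and 1.80 on JEKO PT and 1.67 and 1.64 on JEKO BR, and it fell in HBL2 with a line difference of -1.01 ± 0.15 (adjusted p = 0.00066). The kinase LCK had scores of 0.85, 0.62 and 0.64 on the HBL2 PT arrays, 0.68, 0.53 and 0.81 on HBL2 BR, 1.20 and 1.06 on JEKO PT and 1.99 and 2.05 on JEKO BR. LCK rose in JEKO by 0.89 ± 0.10 (adjusted p = 0.000127) with an HBL2 change of -0.032 ± 0.084 (adjusted p = 0.877), a line difference of -0.93 ± 0.13 (adjusted p = 0.000364). INPP5D, the phosphatase SHIP1, differed by -0.61 ± 0.092 (adjusted p = 0.00054), and NFATC1, a calcium-regulated transcription factor, by -0.67 ± 0.13 (adjusted p = 0.00427). The list had 5 calls without JEKO PT 1, 4 without the 3 arrays low in beta-actin and 4 with the median of a gene's probe sets. FCGR2B and LCK lost their calls on percentile ranks (adjusted p = 0.0798 and 0.268). INPP5D lost it with the median of its probe sets (adjusted p = 0.0581) and when _x_at and _s_at probe sets were dropped (adjusted p = 0.0878), and NFATC1 with the median of its probe sets (adjusted p = 0.737), when _x_at and _s_at probe sets were dropped (adjusted p = 0.927) and without the 3 arrays low in beta-actin (adjusted p = 0.0777).

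Myeloid markers taken as a sum were lower in HBL2 BR than in HBL2 PT. The summed score of the 8 myeloid markers tested, of 14 listed, was 7.1 to 8.34 on HBL2 PT arrays, 4.54 to 4.79 on HBL2 BR, 6.12 to 6.52 on JEKO PT and 6.45 to 6.52 on JEKO BR. Their part in the result was not tested. Of the 8, 2 (25%, beside 8.71% of all genes) were called, TYROBP and AIF1 (-0.58 ± 0.12, adjusted p = 0.00543). The line difference was negative in 6 members and positive in 2. The median HBL2 change of the list was -0.204, against -1.295 for TYROBP and -0.697 for AIF1. The defining markers CD14, S100A8 and S100A9 did not pass the filter on low values.

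Of the 15 T and NK cell markers 7 were tested. Their sum was 4.72 to 5.29 in HBL2 PT, 3.93 to 4.92 in HBL2 BR, 5.76 to 6.58 in JEKO PT and 7.54 to 7.63 in JEKO BR. CD3D, CD3G, CD2, CD8A, NKG7, GNLY and KLRD1 did not pass the filter. CD7 was the 1 called member (-0.61 ± 0.18, adjusted p = 0.0384), and it lost its call without any 1 of HBL2 BR 1, HBL2 BR 2, HBL2 PT 1, HBL2 PT 3, JEKO BR 2, JEKO PT 1 or JEKO PT 2 (adjusted p = 0.0565 to 0.227) and in 7 of the other settings (adjusted p = 0.0503 to 0.44). Without HBL2 PT 2 the T and NK list had 2 calls, and without the 3 arrays low in beta-actin 0. Of 10 stromal and epithelial markers 1 (10%, beside 8.71% of all genes) was called, PDGFRB (-0.63 ± 0.17, adjusted p = 0.0281), lost without any 1 of HBL2 BR 2, HBL2 PT 2, HBL2 PT 3, JEKO BR 1, JEKO BR 2 or JEKO PT 2 (adjusted p = 0.0531 to 0.119) and without the 3 arrays low in beta-actin (adjusted p = 0.0741). Their sum lay between 6.6 and 8.24 on all arrays, and LUM, KRT19, CDH1 and SPARC did not pass the filter. Of 6 erythroid markers 0 were called in limma, and 0 had an unadjusted p under 0.05. Their sum lay between 2.73 and 4.58.

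The plasma cell program did not go one way. Of 27 genes tested, 2 were called above and 6 below, with a median of -0.0122 beside -0.0106 over all genes. CD38, a surface enzyme of plasma cells, had scores of 1.24, 1.41 and 1.35 on the HBL2 PT arrays, 1.65, 1.73 and 1.71 on HBL2 BR, 1.003 and 1.003 on JEKO PT and 0.58 and 0.80 on JEKO BR. CD38 rose in HBL2 by 0.36 ± 0.07 (adjusted p = 0.00215) and fell in JEKO (change -0.31 ± 0.085, adjusted p = 0.0495), a line difference of 0.68 ± 0.11 (adjusted p = 0.00109). ELL2, the elongation factor behind secretory immunoglobulin transcripts, had scores of 0.85, 0.97 and 1.05 on the HBL2 PT arrays, 1.83, 1.94 and 1.84 on HBL2 BR, 1.01 and 1.09 on JEKO PT and 1.17 and 1.12 on JEKO BR. ELL2 rose in HBL2 by 0.91 ± 0.066 (adjusted p = 1.41e-07), with a line difference of 0.83 ± 0.10 (adjusted p = 0.00011). Below were ITM2C, a membrane protein of plasma cells, at -0.96 ± 0.11 (adjusted p = 3.01e-05), the tetraspanin CD9 at -0.90 ± 0.13 (adjusted p = 0.000376) and JCHAIN, which joins immunoglobulin polymers, at -0.70 ± 0.14 (adjusted p = 0.00459). CD9 fell in HBL2 and rose in JEKO, and ITM2C and JCHAIN fell in HBL2. With the median of their probe sets ELL2 differed by 0.42 and CD9 by -0.38, both still called.

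The factors that direct plasma cell development did not separate the lines by the test. IRF4 had scores of 1.64, 1.76 and 1.89 on the HBL2 PT arrays, 2.25, 2.25 and 2.09 on HBL2 BR, 1.83 and 2.05 on JEKO PT and 2.18 and 2.21 on JEKO BR. IRF4 rose in HBL2 by 0.43 ± 0.076 (adjusted p = 0.00104), and the JEKO change of 0.25 ± 0.093 (adjusted p = 0.15) was not called, yet the line difference of 0.18 ± 0.12 (95% interval -0.076 to 0.44) was not called either (adjusted p = 0.43). PRDM1, which encodes BLIMP1, differed by 0.25 ± 0.10 (95% interval 0.026 to 0.47, adjusted p = 0.169). XBP1 differed by -0.04 ± 0.10 (95% interval -0.25 to 0.17) and SDC1, the plasma cell surface proteoglycan CD138, by -0.11 ± 0.15 (95% interval -0.43 to 0.21). SDC1 rose in both lines, by 0.39 ± 0.096 (adjusted p = 0.0127) in HBL2 and 0.50 ± 0.12 (adjusted p = 0.0244) in JEKO.

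Cholesterol synthesis gave negative differences in all 19 members (18 of 19 on percentile ranks, where IDI1 turned positive), from -0.883 to -0.099, and 10 were called. The list median was -0.317. The median change was -0.324 in HBL2 and 0.00334 in JEKO. INSIG1, the sterol-responsive brake on the pathway, had scores of 2.53, 2.49 and 2.52 on the HBL2 PT arrays, 1.96, 1.87 and 1.59 on HBL2 BR, 2 and 2.26 on JEKO PT and 2.27 and 2.34 on JEKO BR. INSIG1 fell in HBL2 (change -0.71 ± 0.085, adjusted p = 3.03e-05), and its line difference was -0.88 ± 0.14 (adjusted p = 0.000628). MSMO1, which removes sterol methyl groups, differed by -0.64 ± 0.11 (adjusted p = 0.00164), STARD4, a sterol carrier, by -0.51 ± 0.13 (adjusted p = 0.0244) and LSS, lanosterol synthase, by -0.44 ± 0.11 (adjusted p = 0.0184). HMGCS1, which makes the precursor HMG-CoA, differed by -0.37 ± 0.10 (adjusted p = 0.0323).

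The number of calls in this pathway hung on few arrays: 2 without JEKO PT 1, 3 without JEKO BR 2, 5 without JEKO PT 2, JEKO BR 1, HBL2 BR 1 or HBL2 BR 2, and 3 without the 3 arrays low in beta-actin. It was 6 with the median of a gene's probe sets and 2 on percentile ranks. MSMO1 kept its call in the 23 alternatives run. INSIG1 lost it on percentile ranks (adjusted p = 0.0594), STARD4 without any 1 of HBL2 BR 3, JEKO BR 1, JEKO BR 2 or JEKO PT 1 (adjusted p = 0.0509 to 0.165) and in 4 of the other settings (adjusted p = 0.0524 to 0.107), LSS without any 1 of HBL2 BR 1, JEKO BR 2 or JEKO PT 1 (adjusted p = 0.0525 to 0.116) and in 4 of the other settings (adjusted p = 0.0503 to 0.522) and HMGCS1 without any 1 of HBL2 BR 1, HBL2 BR 2, JEKO BR 2 or JEKO PT 1 (adjusted p = 0.0537 to 0.205) and in 5 of the other settings (adjusted p = 0.0542 to 0.327).

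Genes of adhesion and homing had 15 negative differences of 20. Of these 20, 8 were called below and 1 above, with a median of -0.247. GPR183, an oxysterol receptor that positions B cells, had scores of 2.23, 2.12 and 2.02 on the HBL2 PT arrays, 1.32, 0.98 and 1.02 on HBL2 BR, 2.09 and 1.66 on JEKO PT and 2.03 and 2.05 on JEKO BR. GPR183 fell in HBL2 (change -1.02 ± 0.10, adjusted p = 4.09e-06), and its line difference was -1.18 ± 0.16 (adjusted p = 0.000243). ICAM3, an adhesion molecule of resting leukocytes, had scores of 2.05, 1.89 and 2.01 on the HBL2 PT arrays, 1.19, 1.22 and 1.37 on HBL2 BR, 1.50 and 1.62 on JEKO PT and 1.88 and 2.05 on JEKO BR. It fell in HBL2 and rose in JEKO by 0.41 ± 0.087 (adjusted p = 0.015), with a line difference of -1.13 ± 0.11 (adjusted p = 1.3e-05). The integrin chains ITGB7 and ITGAL differed by -1.004 ± 0.17 (adjusted p = 0.00121) and -0.92 ± 0.11 (adjusted p = 4.21e-05). CD44, a hyaluronan receptor, is a contrast to these: its scores were 1.53, 1.68 and 1.86 on the HBL2 PT arrays, 0.32, 0.53 and 0.90 on HBL2 BR, 1.61 and 1.64 on JEKO PT and 0.67 and 0.67 on JEKO BR, and it fell in both lines. Its line difference was -0.16 ± 0.18 (95% interval -0.54 to 0.22, adjusted p = 0.683). Of the 20 members 6 were called without JEKO PT 1 and 5 on percentile ranks.

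**Figure D3:**
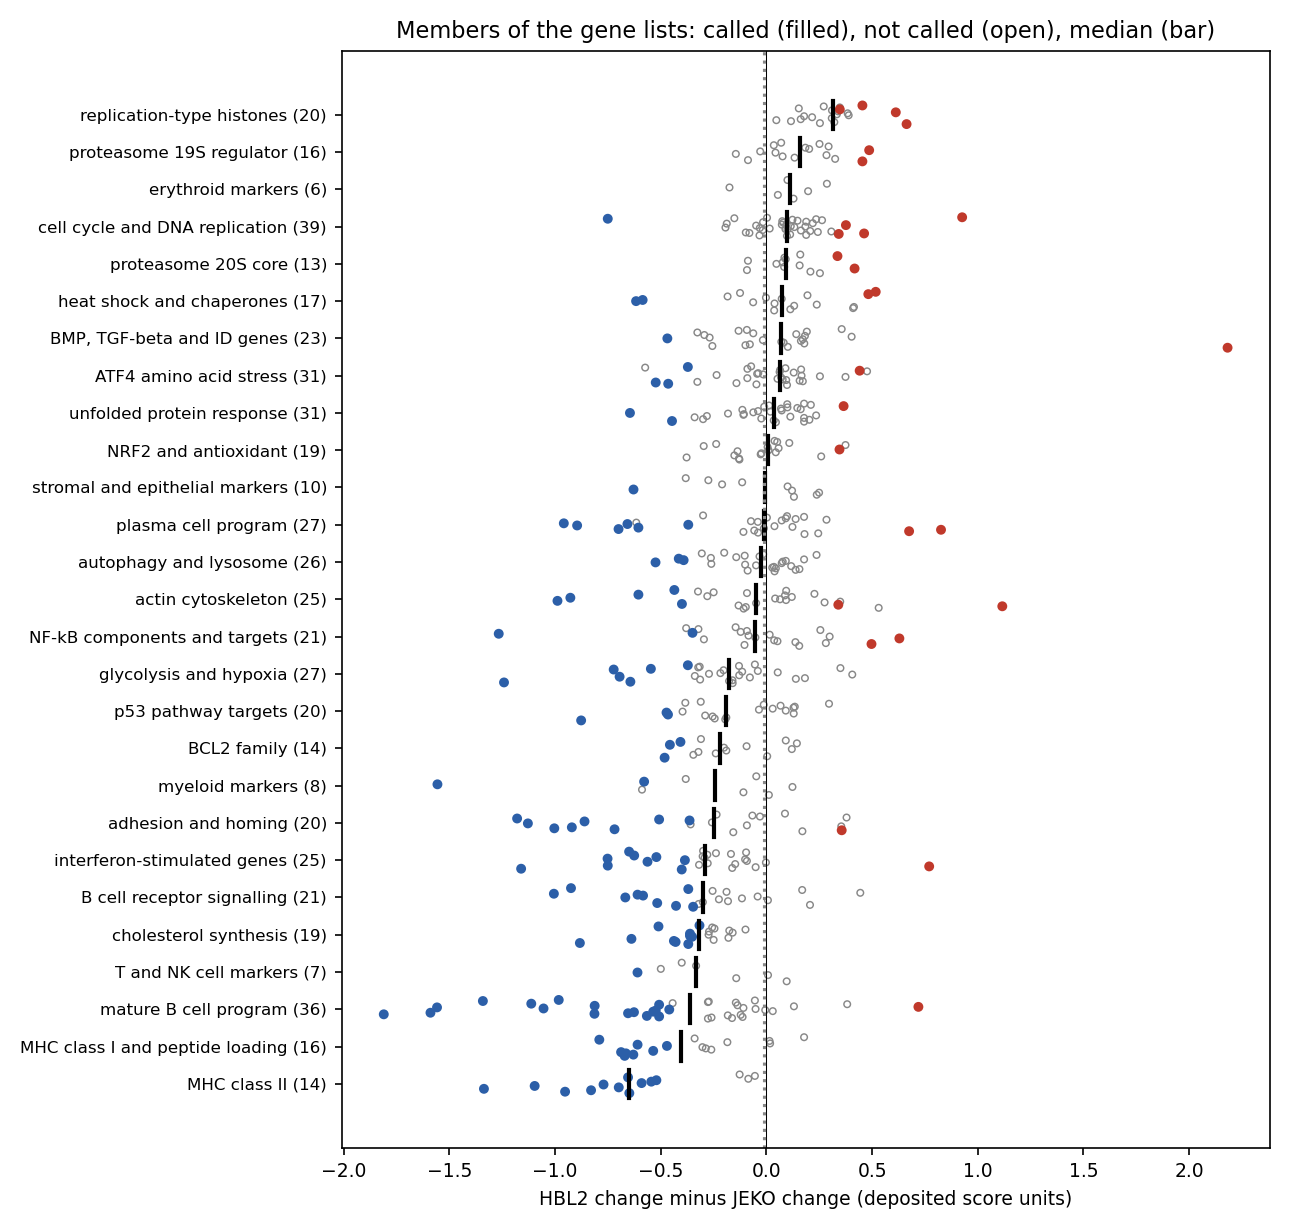
Line difference (horizontal axis, score units) of each tested member of the 27 gene lists (vertical axis), 1 point per gene, with called genes filled (red above, blue below), open circles for genes not called, a bar at the list median and a dotted line at the median of all genes. Numbers in parentheses are the genes tested. MHC class II and cholesterol synthesis lie to the left of 0 and replication-type histones to the right, but on percentile ranks 1 of 19 cholesterol genes and 4 of 20 histone genes turned sign, and on normal scores 2 histone genes.

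Genes of the actin cytoskeleton and its regulators had 2 calls above and 5 below among 25, with a median of -0.049. CTTN, given above, stood at one end. TPM2, a tropomyosin, stood at the other at -0.99 ± 0.15 (adjusted p = 0.0005): it rose in JEKO by 0.70 ± 0.11 (adjusted p = 0.00235), and its call was lost on percentile ranks (adjusted p = 0.0618) and when _x_at and _s_at probe sets were dropped (adjusted p = 0.284). MYO1G, a myosin of blood cells, differed by -0.93 ± 0.11 (adjusted p = 5.73e-05) and RAC2, a small GTPase of blood cells, by -0.61 ± 0.094 (adjusted p = 0.000724). RAC2 fell in HBL2 and rose in JEKO, and with the median of a gene's probe sets it differed by -0.39, still called. CAV1, the coat protein of caveolae, rose in both lines, by 0.86 ± 0.063 (adjusted p = 1.62e-07) in HBL2 and 0.74 ± 0.077 (adjusted p = 7.19e-05) in JEKO, and its line difference of 0.12 ± 0.10 (95% interval -0.088 to 0.34) was not called.

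Genes of the proteasome, the target of the drug, gave positive differences in 11 of 13 core genes and 13 of 16 regulator genes (12 on percentile ranks, where SEM1 turned negative). Over all genes 6960 of 14529 differences were positive. Among 13 genes of the 20S core, 2 were called above and 0 below (15.4%, beside 8.71% of all genes), with a median of 0.0911. Among 16 of the 19S regulator, 2 were called above and 0 below (12.5%), with a median of 0.158. In both lists 0 members were below at an unadjusted p under 0.05. PSMC1, an ATPase of the regulator, had scores of 2.39, 2.37 and 2.39 on the HBL2 PT arrays, 2.68, 2.66 and 2.65 on HBL2 BR, 2.42 and 2.42 on JEKO PT and 2.28 and 2.20 on JEKO BR. PSMC1 rose in HBL2 by 0.28 ± 0.052 (adjusted p = 0.00201), the JEKO change was -0.18 ± 0.064 (adjusted p = 0.144), and the line difference was 0.45 ± 0.083 (adjusted p = 0.00258). PSMD6 differed by 0.49 ± 0.097 (adjusted p = 0.0047), and lost its call without the 3 arrays low in beta-actin (adjusted p = 0.0583). The core subunits PSMA4 and PSMB6 differed by 0.42 ± 0.11 (adjusted p = 0.021) and 0.34 ± 0.086 (adjusted p = 0.0212), and 0 of 13 core genes were called without JEKO BR 2, without JEKO PT 1 or without the 3 arrays low in beta-actin, and 1 without HBL2 BR 1, JEKO BR 1 or JEKO PT 2 and on percentile ranks. The regulator list had 1 call without the 3 arrays low in beta-actin. PSMA4 lost its call without JEKO BR 2 or without JEKO PT 1 (adjusted p = 0.153 to 0.155) and in 4 of the other settings (adjusted p = 0.0584 to 0.313), and PSMB6 without any 1 of HBL2 BR 1, JEKO BR 1, JEKO BR 2, JEKO PT 1 or JEKO PT 2 (adjusted p = 0.0513 to 0.0996) and without the 3 arrays low in beta-actin (adjusted p = 0.0505). PSMB5, the subunit that bortezomib binds, had scores of 2.41, 2.37 and 2.38 on the HBL2 PT arrays, 2.45, 2.44 and 2.49 on HBL2 BR, 2.25 and 2.22 on JEKO PT and 2.25 and 2.19 on JEKO BR. Its arrays lay close together in the 4 groups, and its line difference was 0.085 ± 0.084 (95% interval -0.092 to 0.26, adjusted p = 0.624).

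The shares of called genes in stress pathways are given beside the 8.71% of all genes. Of 31 genes of the unfolded protein response 1 was called above and 2 below (9.68%), of 31 ATF4 targets 1 above and 3 below (12.9%), and of 19 NRF2 and antioxidant genes 1 above and 0 below (5.26%), where 3 had an unadjusted p under 0.05. Of 17 heat shock genes 2 were called above and 2 below (23.5%). The medians lay between 0.00528 and 0.0721. CRELD2, a secreted stress protein of the endoplasmic reticulum, had scores of 2.12, 1.96 and 2 on the HBL2 PT arrays, 1.54, 1.70 and 1.71 on HBL2 BR, 1.62 and 1.61 on JEKO PT and 1.82 and 1.95 on JEKO BR. CRELD2 fell in HBL2 (change -0.38 ± 0.067, adjusted p = 0.00103), with a line difference of -0.65 ± 0.11 (adjusted p = 0.00108). DNAJB6, a co-chaperone, differed by -0.62 ± 0.12 (adjusted p = 0.00472) and rose in JEKO by 0.37 ± 0.095 (adjusted p = 0.0367). DDIT4, a stress-induced inhibitor of mTORC1, differed by -0.52 ± 0.11 (adjusted p = 0.00502) and rose in JEKO by 0.39 ± 0.082 (adjusted p = 0.0126).

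The other named members of those pathways were less stable. DDIT4 lost its call without the 3 arrays low in beta-actin (adjusted p = 0.0736). HSPB1, a small heat shock protein, differed by -0.59 ± 0.14 (adjusted p = 0.0127) and lost its call without JEKO BR 1 or without JEKO PT 2 (adjusted p = 0.0782 to 0.0842) and on percentile ranks (adjusted p = 0.0594). The calls of DNAJB9, SELENOS, ATF5, WARS1, VEGFA, STIP1, CHORDC1 and PGD, with line differences from 0.52 for STIP1 to -0.47 for ATF5, were each lost without JEKO BR 2 and without JEKO PT 1, among other arrays and settings. The sign turned for DNAJB9 when _x_at and _s_at probe sets were dropped (0.032, against -0.45) and for PGD with the median of a gene's probe sets (-0.23, against 0.35). Without JEKO BR 2 or without JEKO PT 1 the unfolded protein response had 1 call, the ATF4 list 1, the heat shock list 2 and the NRF2 list 0. Without the 3 arrays low in beta-actin they had 1, 2, 2 and 0, and on percentile ranks 1, 1, 1 and 0. The unfolded protein response had 1 call without JEKO PT 2 and 5 without HBL2 PT 3. The ATF4 list had 2 calls without HBL2 BR 1, HBL2 BR 2 or JEKO BR 1, and the heat shock list 2 without HBL2 BR 2. The NRF2 list had 0 calls without HBL2 BR 1, HBL2 PT 2 or JEKO PT 2 and 2 without HBL2 PT 3.

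Among 14 BCL2 family genes, 3 were called below and 0 above, where 0 had an unadjusted p under 0.05, and the median was -0.221. BCL2, the survival protein, had scores of 2.52, 2.58 and 2.72 on the HBL2 PT arrays, 2.55, 2.56 and 2.55 on HBL2 BR, 1.73 and 1.72 on JEKO PT and 2.11 and 2.19 on JEKO BR. BCL2 rose in JEKO by 0.43 ± 0.074 (adjusted p = 0.00334), while its HBL2 change was -0.054 ± 0.06 (adjusted p = 0.659), a line difference of -0.48 ± 0.095 (adjusted p = 0.0045). The call was lost with the median of its probe sets (adjusted p = 0.119). BIK, a BH3-only killer protein, rose in JEKO by 0.52 ± 0.094 (adjusted p = 0.00451) and differed by -0.46 ± 0.12 (adjusted p = 0.0255), lost without any 1 of HBL2 BR 1, HBL2 BR 2, HBL2 PT 2, JEKO BR 1, JEKO PT 1 or JEKO PT 2 (adjusted p = 0.0551 to 0.141) and with no intensity trend (adjusted p = 0.0509). HRK, another BH3-only protein, fell in HBL2 (change -0.40 ± 0.073, adjusted p = 0.00147) and differed by -0.41 ± 0.12 (adjusted p = 0.0382), lost without any 1 of HBL2 BR 1, HBL2 BR 2, HBL2 PT 1, HBL2 PT 2, JEKO BR 2 or JEKO PT 1 (adjusted p = 0.0562 to 0.208) and in 5 of the other settings (adjusted p = 0.0661 to 0.258). The list had 1 call without HBL2 BR 1, HBL2 BR 2, HBL2 PT 2 or JEKO PT 1. PMAIP1, which encodes NOXA, the BH3-only protein known to be induced by bortezomib, differed by 0.091 ± 0.15 (95% interval -0.22 to 0.40), and MCL1, its binding partner, by -0.24 ± 0.094 (95% interval -0.44 to -0.041). Neither was called.

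CDKN1A, the p53 target that encodes the cell cycle inhibitor p21, had scores of 1.81, 1.68 and 1.81 on the HBL2 PT arrays, 1.33, 1.36 and 1.49 on HBL2 BR, 1.22 and 1.22 on JEKO PT and 1.78 and 1.67 on JEKO BR. CDKN1A fell in HBL2 (change -0.37 ± 0.065, adjusted p = 0.000968) and rose in JEKO by 0.51 ± 0.079 (adjusted p = 0.00178), a line difference of -0.88 ± 0.10 (adjusted p = 5.33e-05). Of 20 p53 targets, 3 (15%, beside 8.71% of all genes) were called below and 0 above, where 1 had an unadjusted p under 0.05, and the median was -0.192. The other called members were ZMAT3 at -0.47 ± 0.11 (adjusted p = 0.0128) and SESN1 at -0.47 ± 0.12 (adjusted p = 0.0248). ZMAT3 lost its call without JEKO BR 1 or without JEKO PT 2 (adjusted p = 0.0648 to 0.0665), with the median of its probe sets (adjusted p = 0.188) and on percentile ranks (adjusted p = 0.113). SESN1 lost its call without any 1 of HBL2 BR 1, HBL2 BR 2, HBL2 PT 2, JEKO BR 1, JEKO BR 2 or JEKO PT 2 (adjusted p = 0.0532 to 0.111), with no intensity trend (adjusted p = 0.0568) and on percentile ranks (adjusted p = 0.055). The list had 1 call without JEKO PT 2 and on percentile ranks.

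Of 39 cell cycle and replication genes, 4 were called above and 1 below (12.8%, beside 8.71% of all genes), with a median of 0.0992. CDK6, a kinase of the G1 phase, rose in HBL2 by 1.02 ± 0.11 (adjusted p = 7.15e-06) and differed by 0.93 ± 0.17 (adjusted p = 0.00263). With the median of its probe sets it differed by 0.47, and its call was lost on normal scores (adjusted p = 0.329) and on percentile ranks (adjusted p = 0.407). CCND2, its D-type cyclin partner, rose in JEKO by 0.89 ± 0.10 (adjusted p = 0.00016) and differed by -0.75 ± 0.14 (adjusted p = 0.00221), but its probe sets disagree, and with their median the value was 0.25 (adjusted p = 0.391). The list had 2 calls without JEKO BR 2, without JEKO PT 1 or without the 3 arrays low in beta-actin, 3 without HBL2 BR 2, JEKO BR 1 or JEKO PT 2 and with the median of a gene's probe sets, and 1 on percentile ranks.

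Replication-type histone genes had positive line differences in 20 of 20 members (18 on normal scores, where H2AC6 and H2AC8 turned negative, and 16 on percentile ranks, where H2BC12 and H2BC5 did too), from 0.047 to 0.663 with a median of 0.316. The median change was -0.344 in JEKO and -0.0469 in HBL2, and 4 were called. H1-2, a linker histone, had scores of 1.48, 1.32 and 1.48 on the HBL2 PT arrays, 1.42, 1.31 and 1.52 on HBL2 BR, 2.64 and 2.54 on JEKO PT and 1.82 and 2.02 on JEKO BR. H1-2 fell in JEKO (change -0.67 ± 0.091, adjusted p = 0.000585), with an HBL2 change of -0.0084 ± 0.075 (adjusted p = 0.966) and a line difference of 0.66 ± 0.12 (adjusted p = 0.00209). H2BC12 fell in JEKO (change -0.79 ± 0.087, adjusted p = 9.23e-05) and differed by 0.61 ± 0.11 (adjusted p = 0.00268). H4C8 and H2BC21 differed by 0.45 ± 0.13 (adjusted p = 0.0338) and 0.35 ± 0.10 (adjusted p = 0.0409). On percentile ranks 0 of 20 were called, where H2BC12 had a value of -0.23 percentile points (adjusted p = 0.941). Without JEKO BR 2, JEKO PT 1, HBL2 BR 1 or HBL2 PT 2 the list had 2 calls, and H4C8 and H2BC21 lost theirs in each of these cases. It also had 2 without the 3 arrays low in beta-actin. Histone genes resemble each other, so their probe sets may bind several of them.

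Glycolysis and hypoxia genes leaned the other way, with 6 of 27 called below and 0 above, where 2 had an unadjusted p under 0.05, and a median of -0.177. The median change was 0.181 in JEKO and -0.0367 in HBL2. SLC2A3, the glucose transporter GLUT3, had scores of 1.10, 0.97 and 1.14 on the HBL2 PT arrays, 0.47, 0.22 and 0.40 on HBL2 BR, 0.74 and 0.89 on JEKO PT and 1.22 and 1.48 on JEKO BR. SLC2A3 fell in HBL2 (change -0.71 ± 0.093, adjusted p = 6.78e-05) and rose in JEKO by 0.53 ± 0.11 (adjusted p = 0.015), a line difference of -1.24 ± 0.15 (adjusted p = 6.27e-05). With the median of its probe sets it differed by -0.77, still called. HK1, a hexokinase that starts glycolysis, differed by -0.64 ± 0.11 (adjusted p = 0.00169), and PDK1, which holds pyruvate back from the mitochondrion, by -0.72 ± 0.12 (adjusted p = 0.00118). PDK1 lost its call with the median of its probe sets (adjusted p = 0.253). ALDOC, an aldolase, rose in JEKO by 0.56 ± 0.12 (adjusted p = 0.0138) and differed by -0.70 ± 0.15 (adjusted p = 0.00934), a call lost without JEKO PT 1 (adjusted p = 0.0753) and on percentile ranks (adjusted p = 0.0526). The list had 4 calls without JEKO PT 1.

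NF-kB components and targets had 2 calls above and 2 below among 21 (19%, beside 8.71% of all genes), with a median of -0.0526. CCL4, a chemokine that activated B cells secrete, had scores of 1.38, 1.26 and 1.41 on the HBL2 PT arrays, 0.39, 0.46 and 0.67 on HBL2 BR, 0.86 and 0.96 on JEKO PT and 1.31 and 1.35 on JEKO BR. CCL4 fell in HBL2 (change -0.84 ± 0.08, adjusted p = 2.17e-06) and rose in JEKO by 0.43 ± 0.097 (adjusted p = 0.0212), a line difference of -1.27 ± 0.13 (adjusted p = 1.23e-05). NFKBIZ, a nuclear regulator of NF-kB, rose in both lines, by 1.07 ± 0.081 (adjusted p = 2.23e-07) in HBL2 and 0.44 ± 0.10 (adjusted p = 0.0205) in JEKO. Its line difference of 0.63 ± 0.13 (adjusted p = 0.00563) was lost without JEKO BR 2 (adjusted p = 0.0509), on percentile ranks (adjusted p = 0.242) and without the 3 arrays low in beta-actin (adjusted p = 0.0856). REL, an NF-kB subunit, differed by 0.50 ± 0.098 (adjusted p = 0.00462), lost without the 3 arrays low in beta-actin (adjusted p = 0.0539). The NF-kB list had 2 calls without JEKO BR 2 and 1 without the 3 arrays low in beta-actin. Of 26 autophagy and lysosome genes 3 (11.5%) were called below and 0 above, where 0 had an unadjusted p under 0.05, and the median was -0.0243. These were WIPI1 (-0.53 ± 0.12, adjusted p = 0.0111), CTSH (-0.42 ± 0.11, adjusted p = 0.0202) and CTSB (-0.39 ± 0.099, adjusted p = 0.0198). The list had 0 calls without JEKO BR 2, and 1 without HBL2 BR 2, without JEKO BR 1 or without the 3 arrays low in beta-actin. When _x_at and _s_at probe sets were dropped WIPI1 differed by -0.21 (adjusted p = 0.372) and CTSB by -0.072 (adjusted p = 0.756), and with the median of its probe sets CTSB differed by -0.11 (adjusted p = 0.526).

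Called genes with the same sign stood next to each other in places. In RefSeq gene order 143 of 14488 neighbouring pairs of tested genes (0.987%) were both called in one direction, and 21 runs held 3 genes or more. The longest runs had 5 genes. One was HLA-DRA, HLA-DRB6, HLA-DRB1, HLA-DQA1 and HLA-DQB1, with line differences from -1.34 to -0.49. The other was SMARCD3, NUB1, WDR86, RHEB and PRKAG2, from -1.28 to -0.41. A run of 4 held HSPA6, FCGR2C, FCGR2B and FCRLA, a chaperone gene beside Fc receptor genes, with -0.91, -0.58, -1.01 and -0.81. Copy number was not measured here, and probe sets of the HLA and Fc receptor families can share targets.

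Of 741 called genes with at least 2 probe sets past the filter, 551 had probe sets that all went the same way. Of the 113 named genes that were called, 65 had at least 2 probe sets past the filter, and in 53 of these all had the same sign. Among the 30 genes with the largest differences the numbers were 20 and 19. For each gene 22 or 23 alternatives could be run. A gene with only _x_at or _s_at probe sets past the filter had no fit without those. Of the 113, 53 kept their calls in every alternative run for them, 32 lost them in 1 to 3 alternatives and 28 in 4 or more. Of the 30 largest, 24 kept theirs in all, the exceptions being BCHE, KBTBD7, CTTN, TRAF3IP3, AFF3 and HLA-DQA1.

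**Figure D4:**
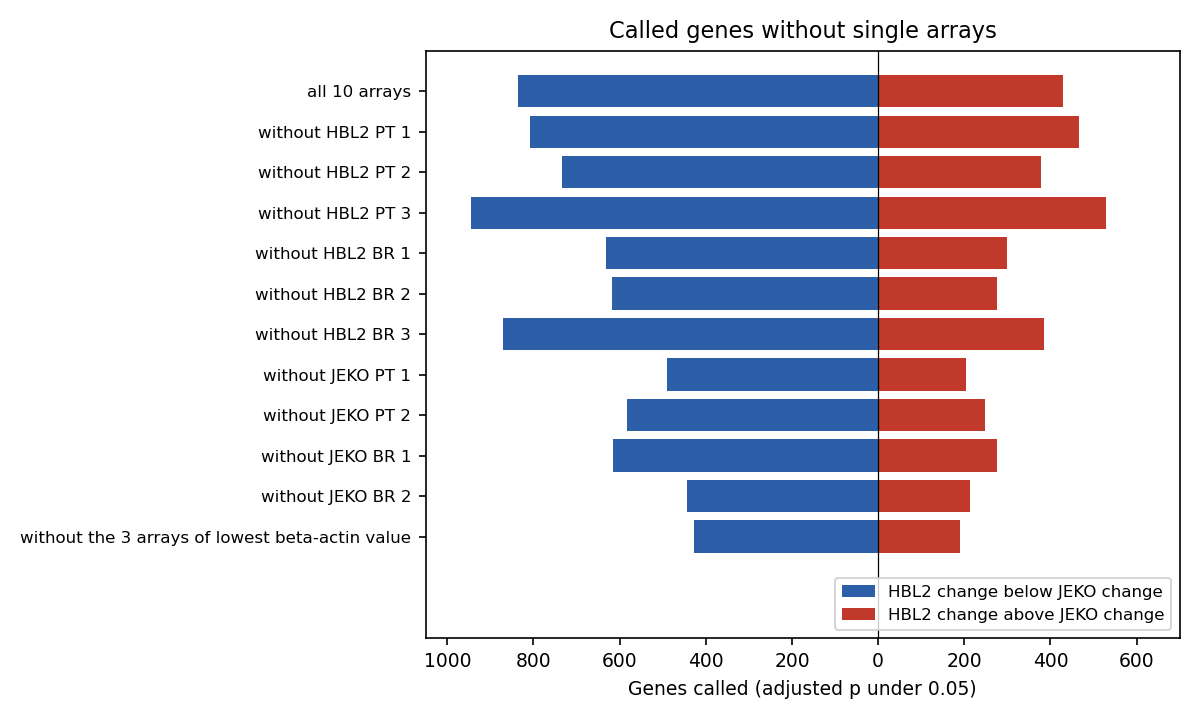
Number of genes called for the line difference (horizontal axis, genes; above to the right, below to the left) with all 10 arrays and with each array left out (vertical axis); for the last bar the 3 arrays low in beta-actin were left out together. The total is 1266 with all arrays, runs from 658 without JEKO BR 2 to 1473 without HBL2 PT 3 where 1 array is left out, and is 619 in the last bar.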

How the data were processed

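RNA of 10 samples was measured on Affymetrix arrays, 1 array each, and groups and replicate numbers came from the titles. The deposited values are scores for 54675 probe sets. Per the submitters' processing notes the tool was MAS5 (no version), and what followed it is not given in the sources used here. Sorted arrays were compared, and the largest difference between sorted arrays was 0, so the deposited score depends only on a probe set's rank. Precision is limited by the number of arrays. The 62 control probe sets, 1801 with several symbols and 11721 with none listed were left out, and 41091 with 1 symbol were kept. Of these, 41037 had their gene number in the RefSeq table (GRCh38.p14), which was used for names and gene order.

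Probe sets had to reach the 50th percentile (0.7302) on 2 or more arrays. For each of the resulting 14529 genes, the probe set with the highest mean was used. In R 4.3.3, limma 3.58.1 (lmFit, contrasts.fit, trended eBayes) estimated 4 group means with 6 residual degrees of freedom and a mean of 9.89 prior degrees of freedom. Tests were two-sided, and p-values from limma were adjusted by Benjamini-Hochberg over all genes. The fit was tested on simulated data. The planned design stood as written.

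Named genes were the 15 called genes at each end, 8 of opposite changes, 6 of like changes of at least 0.3 units, up to 4 called members of each of 27 lists, and 22 preset genes, of which 1 is not reported here. Other list members and neighbours named were chosen after their values were seen. The comparison, lists and genes were chosen with earlier results of these data known, so they are not independent evidence. Lists were counted, not tested. Alternatives changed 1 choice at a time, and without 1 JEKO array its group is a lone array, taken to vary as the other groups do.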

Additional observations from a re-analysis of the deposited data

Results flagged for a closer look

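The change from PT to BR differed between HBL2 and JEKO for 1266 of 14529 genes by the limma test of the line difference itself. The genes singled out by it with opposite changes are listed next. Their PT and BR arrays did not overlap in either line. They were chosen among called genes for a large change in both lines, so this is no further evidence. Over all genes the arrays did not overlap for 27.3% in HBL2 and 50.8% in JEKO. SMAD1 differed by 2.18 ± 0.096, OXCT1 by 1.95 ± 0.18 and PCDH9 by 1.41 ± 0.10, each higher in HBL2 BR and lower in JEKO BR. CPXM1 differed by -1.93 ± 0.10, S100A10 by -1.58 ± 0.12, FCMR by -1.40 ± 0.13, BIN1 by -1.39 ± 0.15 and TMC8 by -1.36 ± 0.13, each lower in HBL2 BR and higher in JEKO BR. Apart from the array weights that limma estimates, groups of 2 or 3 arrays were not searched for single arrays far from the others. The weights ran from 0.412 for HBL2 PT 3 to 2.49 for HBL2 PT 2.

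Probe sets that the annotation gives several gene symbols or none took no part in the comparison. Of 7123 such probe sets past the filter, 214 (3%) were called for the same contrast, 78 above and 136 below. These calls came from a separate fit, adjusted over all non-control probe sets past the filter. The 3% is therefore not comparable with the 8.71% of genes. In a fit of the 27577 probe sets with 1 symbol past the filter, 1541 were called. The largest difference among them was 2.56 ± 0.17 (adjusted p = 6.26e-07) for a probe set with several symbols. Its mean was 0.39 in HBL2 PT, 0.56 in HBL2 BR, 3.33 in JEKO PT and 0.95 in JEKO BR, so JEKO carried the difference. The most negative was -1.59, also for one with several symbols, and among those with no symbol listed it was -1.53. Their genes are not named here.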

How the results depend on the processing

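Of 113 named genes called, 53 kept direction and call in every alternative that could be run for them, 22 or 23 per gene. The sign turned for 5: OSBPL10 to 0.073 and DNAJB9 to 0.032 when _x_at and _s_at probe sets were dropped, PGD to -0.230 and CCND2 to 0.249 with the median over probe sets, and H2BC12 to -0.233 percentile points on ranks. None of these 5 turned values was called, and the cause was not tested. Of the 15 named genes not called, 2 were called in an alternative, MS4A1 and CD79A.

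The counts moved by over 1.5 times in these settings. With array weights, 1948 genes were called for the line difference, 743 of them above, and 2684 within HBL2 and 1032 within JEKO. Without the 3 arrays low in beta-actin, a setting chosen after seeing the data, 619 were called, 191 above and 428 below, with 140 within JEKO. With 2 arrays in each group 1122 were called within JEKO, and with no intensity trend 389. With 1 array left out, the line difference had 658 to 1473 calls, 205 to 528 above and 444 to 945 below. Within HBL2 there were 1118 to 1647, and within JEKO 120 to 942. In every other alternative these counts stayed within 1.5 times, among them percentile ranks with 940 and probe sets other than _x_at and _s_at with 877.

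Replicate numbers showed no clear pairing of the HBL2 arrays, and for JEKO the check cannot decide. Same-numbered PT and BR arrays had deviations from their group means that correlated at 0.017, 0.136 and 0.008 in HBL2. There HBL2 PT 1 correlated best with HBL2 BR 3 (0.155). In JEKO the value was 0.078 for the same number and -0.078 for different numbers. With 2 arrays in a group the deviations mirror each other, so these are 1 value. With the number as a replicate block 1302 genes were called, and of the named genes H2BC21 (adjusted p = 0.0527) and SELENOS (adjusted p = 0.0587) lost their calls.

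JEKO has 2 arrays in each group, and the JEKO change has a median standard error of 0.0936 against 0.0764 in HBL2. The smallest line difference called was 0.287 units, and no smaller one was called. Scores of dim probe sets have no detection call here. Both JEKO means lay under the 50th percentile for 44 genes called above and 18 called below, and both HBL2 means for 7 and 30.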
